A study of Mus musculus with 8 samples.

Results

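Iron handling was described through 10 mouse genes, chosen by symbol: the uptake genes Tfrc and Slc11a2, the ferritin genes Fth1 and Ftl1, the iron exporter gene Slc40a1, the heme oxygenase gene Hmox1, and the iron-sulfur assembly genes Iscu, Glrx5, Glrx3 and Bola2. All 10 were found among the 21182 gene symbols measured by RNA sequencing, and all 10 passed the filter on low values, which kept the 10451 genes with at least 1 RPKM (a read count scaled to the length of the gene and to sequencing depth) in at least 4 of 8 embryos. The genes were picked with the differences between the groups already known. Their differences are therefore given as descriptions with their errors, and no call rests on them.

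The samples were 4 single whole embryos labelled as Tet1/2/3 triple knockout (TKO) and 4 single whole Control embryos, whose sample descriptions read 123WT and give no further genotype. All 8 had the C57BL/6 background and were taken at E6.75, a stage given in days after conception and close to the start of gastrulation. The knockout label names the loss of the methylcytosine dioxygenase genes Tet1, Tet2 and Tet3. The sources used here do not give the alleles, the breeding, the litter or the sex. Estimated depth was 9.90 to 18.96 M reads in TKO-labelled embryos and 12.38 to 16.42 M reads in Control embryos. The targeted gene Tet1 had 15.3, 9.50, 9.21 and 11.6 RPKM in TKO-labelled embryos, against 5.03, 5.25, 4.93 and 5.76 RPKM in Control embryos. Its RNA level was thus higher where the label names a knockout, and the name TKO-labelled is used for that reason. RPKM values over a whole gene do not tell whether a deleted exon is absent, so they do not test the label. Tet2 averaged 0.784 ± 0.172 RPKM in TKO-labelled and 0.725 ± 0.189 RPKM in Control embryos, with overlap. Tet3 averaged 1.38 ± 0.246 and 1.85 ± 0.155 RPKM in the same order (SD, n = 4 each). Its 1.14 to 1.68 RPKM in TKO-labelled embryos lay below the 1.73 to 2.08 RPKM in Control embryos without overlap.

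The embryo label was checked against markers. The 8 epiblast markers summed to 529 to 1004 RPKM in TKO-labelled and 474 to 691 RPKM in Control embryos. The 14 visceral endoderm markers summed to 3348 to 5248 and 2668 to 6455 RPKM, and the 7 measured markers of extraembryonic ectoderm to 95.2 to 139 and 101 to 158 RPKM, in the same order of groups. Whole embryos hold all these tissues, so fewer cells of a type and less RNA per cell cannot be told apart in any value below.

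Cells take up iron bound to transferrin through the transferrin receptor, and the endosomal carrier DMT1 moves it into the cytosol. Iron not used at once is stored inside ferritin shells of heavy and light chains, leaves the cell through ferroportin, or enters mitochondria, where it is built into iron-sulfur clusters and heme. When iron is scarce, iron regulatory proteins bind hairpins called iron-responsive elements. A hairpin in the 5′ untranslated region (UTR) lets them block translation, which need not change the RNA level, while hairpins in the 3′ UTR of the transferrin receptor RNA protect it from decay. At this stage the visceral endoderm, which lies at the surface of the embryo, takes up maternal nutrients.

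The hairpins are shown because their place in the RNA, 5′ or 3′ UTR, differs between these genes. The canonical form was searched on the transcript strand as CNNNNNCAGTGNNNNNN, in which the 5 bases before the CAGTGN loop pair with the 5 bases after it, G-U pairs allowed. In 1 transcript per gene of GENCODE release M21 (build GRCm38, not the mm9 build of the deposited values), 4 of the 10 genes held a match. Capitals mark the unpaired C and the loop.
Fth1 5′ UTR, chr19:9982733-9982759, plus strand: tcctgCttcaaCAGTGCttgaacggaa
Ftl1 5′ UTR, chr7:45459780-45459806, minus strand: tcttgCttcaaCAGTGTttgaacggaa
Slc40a1 5′ UTR, chr1:45925466-45925492, minus strand: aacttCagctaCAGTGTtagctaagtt
Tfrc 3′ UTR match 1, chr16:32631220-32631246, plus strand: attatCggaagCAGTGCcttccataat
Tfrc 3′ UTR match 2, chr16:32631599-32631625, plus strand: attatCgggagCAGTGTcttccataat
Tfrc 3′ UTR match 3, chr16:32631664-32631690, plus strand: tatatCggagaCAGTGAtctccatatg
Tfrc 3′ UTR match 4, chr16:32631711-32631737, plus strand: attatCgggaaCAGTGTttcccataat
Fth1, Ftl1 and Slc40a1 each held 1 match, in the 5′ UTR, and Tfrc held 4, all in the 3′ UTR. Over all annotated genes such a match occurred in 0.102% of 20520 5′ UTRs and in 0.532% of 20662 3′ UTRs. The search found 0 matches in Slc11a2, Hmox1, Iscu, Glrx5, Glrx3 and Bola2. That says only that no fully paired hairpin of this form is in the transcripts searched. Hairpins of other forms and other transcripts of these genes were not searched, so control by iron is not excluded for them.

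The ferritin genes stood at the top of the list and Slc11a2 at the bottom, with the same order at both ends in both groups. Levels are compared per length, as RPKM. In TKO-labelled embryos the order of the means was Fth1, Ftl1, Glrx5, Bola2, Iscu, Glrx3, Hmox1, Tfrc, Slc40a1 and Slc11a2. There the ranges over embryos overlapped between Glrx5 and Bola2, between Glrx3 and Hmox1, and between Hmox1 and Tfrc. In Control embryos the order was Fth1, Ftl1, Bola2, Glrx5, Iscu, Glrx3, Tfrc, Hmox1, Slc40a1 and Slc11a2, and the neighbours whose ranges overlapped were Iscu and Glrx3, Tfrc and Hmox1, and Slc40a1 and Slc11a2. Bola2 thus lay above Glrx5 in every Control embryo, and in 2 of 4 TKO-labelled embryos it lay below.

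**Figure D1:**
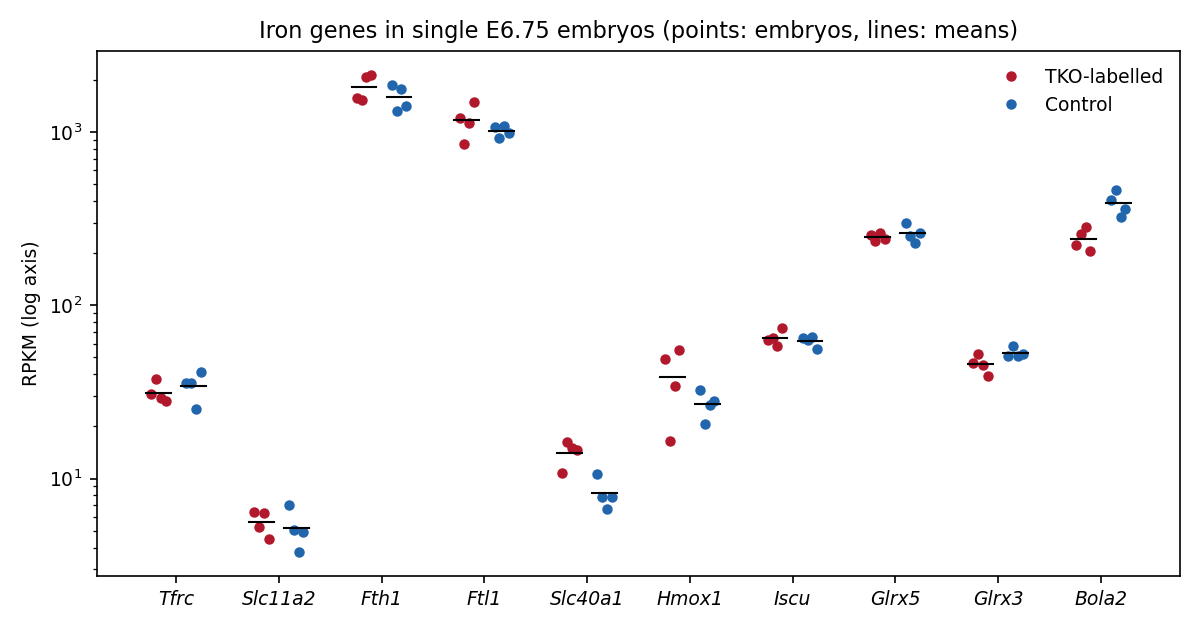
RPKM (log axis) of the 10 iron genes in each of 4 TKO-labelled embryos (red, left) and 4 Control embryos (blue, right), 1 point per embryo, with a line at each group's mean. Slc40a1 and Bola2 are the genes whose groups do not overlap, and the TKO-labelled points of Hmox1 are spread from 16.6 to 55.5 RPKM.

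Between the groups Slc40a1 was higher and Bola2 lower in TKO-labelled embryos without overlap, while the groups of the other 8 genes overlapped. Tested by limma with Benjamini-Hochberg adjustment over all 10451 genes, 0 of the 10 genes passed 0.05, with adjusted p-values of 0.132 to 0.835, against 0.00957% of all genes called. An unadjusted limma p under 0.05 was found for 1 higher gene (Slc40a1) and 1 lower gene (Bola2), against 17.5% of all genes. The groups did not overlap for 1 gene that was higher, against 7.55% of all genes, and for 1 that was lower, against 1.86%, so for 2 of 10 in either direction, against 9.41%. Differences were positive for 6 of the 10, against 66.5% of all genes. The median log2 difference of the 10 was 0.08, beside 0.09 for all tested genes, and both were near 0 under quantile normalization (-0.02 for the 10 and 0.00 for all genes). Because this contrast was known when the genes were picked, nothing is read from these counts. Log2 differences are TKO-labelled minus Control on the log2(RPKM + 1) scale, which understates changes of low values.

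**Figure D2:**
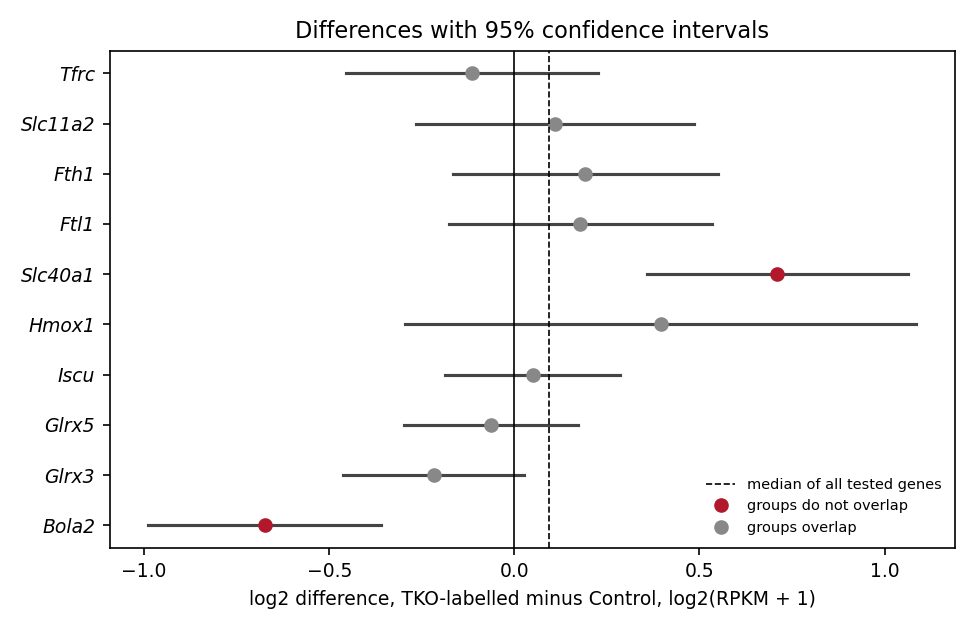
Log2 difference (TKO-labelled minus Control, log2(RPKM + 1)) of each iron gene with its 95% confidence interval from the limma fit of 4 against 4 embryos; the dashed line is the median of all tested genes, 0.09. The points run from -0.67 for Bola2 to 0.71 for Slc40a1, and red marks the genes whose groups do not overlap.

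Tfrc encodes the transferrin receptor, the main entry for iron in growing cells. It had 30.8, 37.3, 29.3 and 27.9 RPKM in TKO-labelled embryos, against 35.5, 35.5, 25.2 and 40.9 RPKM in Control embryos. All 4 TKO-labelled values lay inside the Control range, whose ends were Control replicates 3 and 4. Tfrc had a log2 difference of -0.11 (SE 0.15, 95% confidence interval -0.45 to 0.23), which was -0.25 without Control replicate 3 and -0.02 without Control replicate 4. Values over the other alternatives lay between -0.25 and -0.06, with -0.20 without TKO replicate 2 and -0.06 without TKO replicate 4.

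Slc11a2 encodes DMT1, the carrier that takes iron out of the endosome. It was the lowest of the 10, with 6.40, 5.27, 6.34 and 4.48 RPKM in TKO-labelled embryos, against 7.07, 5.02, 3.78 and 4.95 RPKM in Control embryos. The TKO-labelled range again lay within the Control range. The log2 difference of 0.11 (SE 0.17, 95% confidence interval -0.27 to 0.49) changed sign with the visceral endoderm markers as a covariate (-0.04) and without Control replicate 3 (-0.01). An estimated 142 to 364 reads lay behind each value, which gives a counting error of 8.41% at the lowest, less than the spread between embryos of 16.4% in TKO-labelled and 26.3% in Control embryos (coefficient of variation).

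Fth1 encodes the ferritin heavy chain, which oxidises iron for storage. Its level was 1573, 1529, 2061 and 2140 RPKM in TKO-labelled embryos, against 1872, 1328, 1776 and 1412 RPKM in Control embryos. TKO-labelled replicates 3 and 4 lay above every Control embryo and the other two inside the Control range. For Fth1 the log2 difference was 0.19 (SE 0.16, 95% confidence interval -0.17 to 0.55), and 0.06 with the level of parietal endoderm markers as a covariate. It was 0.11 without TKO replicate 4, without Control replicate 2 or under median-ratio scaling.

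Ftl1 encodes the ferritin light chain, which helps the iron core to form. It had 1205, 847, 1123 and 1495 RPKM in TKO-labelled embryos, against 1071, 925, 1075 and 980 RPKM in Control embryos. The TKO-labelled embryos lay on both sides of the narrow Control range, 3 above it and replicate 2 below it. For Ftl1 it was 0.18 (SE 0.16, 95% confidence interval -0.18 to 0.54), 0.05 without TKO replicate 4 and 0.32 without TKO replicate 2. Of the 50-base words of the Ftl1 transcript, 78.9% also occur in transcripts of 15 other annotated genes, among them Ftl1 pseudogenes, so its level depends on how such reads were assigned. For Fth1 that share was 6.59%.

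The ratio of heavy to light chain RPKM overlapped between the groups. Fth1 over Ftl1 was 1.31, 1.80, 1.84 and 1.43 in TKO-labelled embryos, against 1.75, 1.44, 1.65 and 1.44 in Control embryos, with means of 1.59 ± 0.266 and 1.57 ± 0.156 (SD, n = 4 each). Fth1 RPKM was above Ftl1 RPKM in all 8 embryos. With 78.9% of the Ftl1 words and 6.59% of the Fth1 words shared with other genes, this ratio depends on read assignment, which was not tested.

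Slc40a1 encodes ferroportin, the iron exporter of vertebrate cells. It had 10.76, 16.2, 14.9 and 14.5 RPKM in TKO-labelled embryos, against 10.67, 7.87, 6.68 and 7.82 RPKM in Control embryos. Each TKO-labelled value lay above each Control value, though TKO replicate 1 exceeded Control replicate 1 by less than 0.1 RPKM. The means were 14.1 ± 2.35 RPKM in TKO-labelled and 8.26 ± 1.70 RPKM in Control embryos (SD, n = 4 each), a ratio of 1.71, with a log2 difference of 0.71 (SE 0.16, 95% confidence interval 0.36 to 1.06).

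Markers of other tissues moved with Slc40a1 in part. The 12 measured parietal endoderm markers all had higher means in TKO-labelled embryos. They summed to 193, 505, 662 and 427 RPKM in TKO-labelled embryos, against 192, 117, 127 and 232 RPKM in Control embryos. TKO replicate 1, the lowest of its group for Slc40a1, was also lowest here and lay inside the Control range. In Control embryos the order differed: replicate 4 had the highest sum, and its Slc40a1 lay below that of replicates 1 and 2. With the mean level of these markers as a covariate the log2 difference of Slc40a1 was 0.42 (SE 0.21), smaller by over 1.5 times, and with the visceral endoderm markers as a covariate it was 0.59. Without TKO replicate 1 it was 0.83. Visceral endoderm markers summed to 3665, 4039, 5248 and 3348 RPKM in TKO-labelled embryos, against 6455, 4524, 2668 and 3454 RPKM in Control embryos. Over Control embryos that order was the order of Slc40a1, and over TKO-labelled embryos it was not. Means were higher in TKO-labelled embryos for 11 of the 14 visceral endoderm markers and for 7 of 8 epiblast markers. The parietal endoderm covariate was itself higher in most TKO-labelled embryos. Fits with it, for this and the other genes, therefore cannot tell tissue and group apart. The part of these tissues in the difference was not tested.

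Hmox1 encodes the inducible heme oxygenase, which frees iron from heme. Over all 8 embryos it varied most of the 10, though in Control embryos Slc11a2, Slc40a1 and Tfrc had larger coefficients of variation. Hmox1 had 48.7, 16.6, 34.3 and 55.5 RPKM in TKO-labelled embryos, against 32.2, 20.7, 26.6 and 28.1 RPKM in Control embryos. In TKO-labelled embryos 3 values lay above every Control value and replicate 2 lay below every one. The highest TKO-labelled value was 3.35 times the lowest, and the highest Control value 1.55 times the lowest. Hmox1 had a log2 difference of 0.40 (SE 0.31, 95% confidence interval -0.29 to 1.09), 0.74 without TKO replicate 2, 0.25 without TKO replicate 1 and 0.18 without TKO replicate 4. With the parietal endoderm covariate it was 0.73.

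Blood and maternal cells are other sources of heme and iron genes. Erythroid markers were low, leukocyte markers were spread over both groups, and decidua markers varied widely, with lower means in TKO-labelled embryos. The 6 measured erythroid markers summed to 1.19 to 2.05 RPKM in TKO-labelled and 0.997 to 1.71 RPKM in Control embryos, with the embryonic globin genes Hba-x, Hbb-bh1 and Hbb-y listed at 0 in all 8. The 11 measured leukocyte markers summed to 2.94 to 27.1 and 2.48 to 37.9 RPKM. The 9 decidua markers summed to 29.99 to 439 and 10.1 to 536 RPKM in the same order of groups, and 0 of the 9 had a higher mean in TKO-labelled embryos. By embryo the decidua sums were 48.5, 29.99, 439 and 95.2 RPKM in TKO-labelled embryos and 258, 10.1, 536 and 339 RPKM in Control embryos. Replicate 2 of each group had the lowest sum and the lowest Hmox1, but the order differed elsewhere: TKO replicate 1, with the next lowest sum, had the second highest Hmox1 of its group, and replicate 3, with the highest sum in both groups, was the third of 4 for Hmox1 in each. The part of maternal tissue in the Hmox1 spread, or in the differences of the other genes, was not tested.

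Iscu encodes the scaffold on which mitochondria build iron-sulfur clusters. It had 62.9, 64.4, 57.9 and 74.0 RPKM in TKO-labelled embryos, against 64.9, 63.3, 65.3 and 56.2 RPKM in Control embryos. The groups overlapped, and only TKO replicate 4 lay above the Control range. Its log2 difference was 0.05 (SE 0.11, 95% confidence interval -0.19 to 0.29), and it was negative under 4 of 19 alternatives, among them median-ratio scaling and quantile normalization, where it was -0.06. Reads of 23.5% of its 50-base words could also come from the annotated locus Gm16437.

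Glrx5 encodes the mitochondrial glutaredoxin that passes new clusters on from the scaffold. It had 254, 234, 260.0 and 243 RPKM in TKO-labelled embryos, against 298, 251, 230 and 260.1 RPKM in Control embryos. The TKO-labelled values were the tightest of the 10 genes, with a coefficient of variation of 4.73% against 10.9% in Control embryos, and lay inside the Control range. For Glrx5 the log2 difference was -0.06 (SE 0.11, 95% confidence interval -0.30 to 0.17), and without Control replicate 1 it was 0.00.

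Glrx3 encodes the cytosolic glutaredoxin that forms cluster-bridged complexes with the BolA-family protein of Bola2. It had 46.4, 52.2, 44.9 and 39.2 RPKM in TKO-labelled embryos, against 51.2, 58.1, 50.7 and 52.5 RPKM in Control embryos. In TKO-labelled embryos 3 values lay below every Control value and replicate 2 inside the Control range. Glrx3 had a log2 difference of -0.22 (SE 0.11, 95% confidence interval -0.46 to 0.03), and -0.35 under quantile normalization. Of its 50-base words 45.4% also occur in the locus Gm12669, so this level too depends on how such reads were assigned.

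Bola2 encodes the cytosolic BolA-family partner of Glrx3 in handling iron-sulfur clusters. It had 224, 257, 284 and 206 RPKM in TKO-labelled embryos, against 403, 465, 325 and 360 RPKM in Control embryos. All 4 TKO-labelled embryos lay below all 4 Control embryos. The means were 242 ± 34.8 RPKM in TKO-labelled and 388 ± 60.5 RPKM in Control embryos (SD, n = 4 each), a ratio of 0.625, with a log2 difference of -0.67 (SE 0.14, 95% confidence interval -0.99 to -0.36). None of its 50-base words occurred in another annotated gene, 0 of 1217. Leaving out any 1 embryo gave log2 differences between -0.76 and -0.58.

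The ratio of the partners follows from the values above and is given as a description. Bola2 over Glrx3 in RPKM was 4.82, 4.92, 6.32 and 5.24 in TKO-labelled embryos, against 7.87, 8.0, 6.40 and 6.85 in Control embryos. The groups did not overlap, though TKO replicate 3 and Control replicate 3 were close. The ratio of the glutaredoxins, Glrx5 over Glrx3, overlapped, with means of 5.48 ± 0.732 and 4.90 ± 0.664 (SD, n = 4 each), TKO-labelled first.

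Bola2 has a short coding sequence in a transcript of 1266 bases, and genes with short coding sequences mostly had negative differences. Its coding length is 258 bases, and the 190 tested genes with a coding length under 300 bases had a median log2 difference of -0.21 (-0.29 under median-ratio scaling and -0.26 under quantile normalization). Of those 190 genes, 25.3% had a positive difference, and the groups did not overlap, with TKO-labelled lower, in 10.5%, against 1.86% of all genes. In the class of 1000 to under 2000 bases, which holds Slc40a1, the median was 0.12. Within its class Bola2 ranked 17 of 190 from the lowest (difference minus class median -0.47). With each embryo centred on the median of its length class, an alternative added after the data were seen, the log2 difference of Bola2 was -0.49 (SE 0.11) and that of Slc40a1 was 0.61 (SE 0.16).

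**Figure D3:**
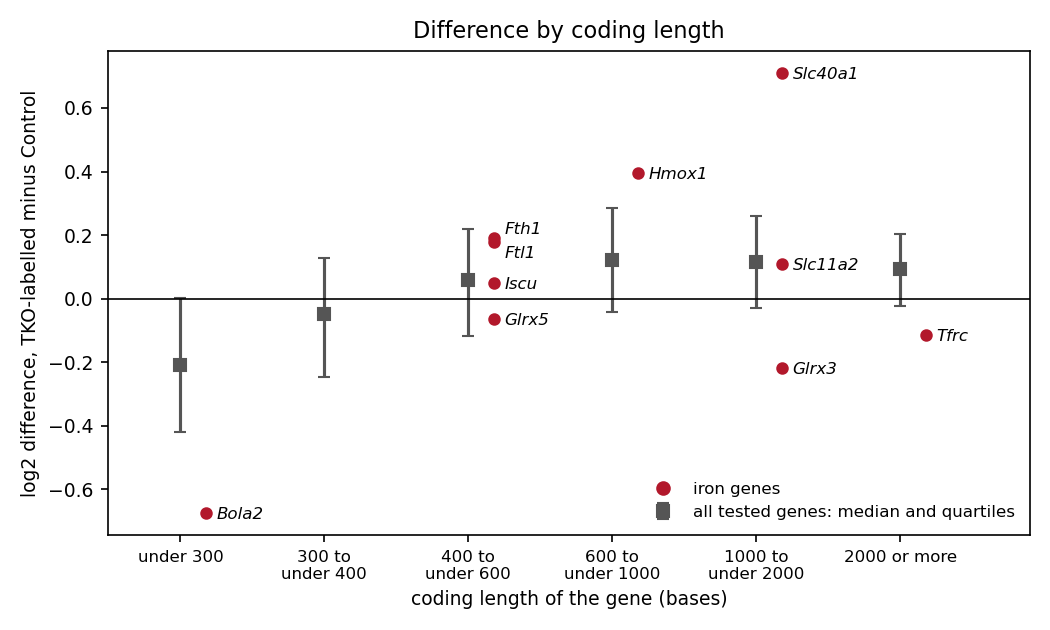
Log2 difference (TKO-labelled minus Control, log2(RPKM + 1)) of the 10 iron genes (red) beside the median and quartiles of all tested genes (grey squares and bars) in 6 classes of coding length in bases. The median is -0.21 under 300 bases and 0.12 at 600 to under 1000 bases, and Bola2, Glrx3 and Tfrc lie below the quartiles of their classes, Slc40a1 and Hmox1 above them.

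Likeness over the 8 embryos was the mean absolute difference of centred log2 values. Each gene was centred over all 8 embryos, so the difference between the groups is part of what was matched. Predicted genes, with Gm or Rik symbols, were left out. Most like Bola2 were the ribosomal protein genes Rpl38 (0.06) and Rps21 (0.08) and the complex I gene Ndufv3 (0.07). Their coding lengths are 210, 249 and 1404 bases. Rpl38 averaged 1040 RPKM in TKO-labelled and 1606 RPKM in Control embryos. Its log2 difference of -0.62 lies near that of Bola2 because of how it was picked, and is no separate result. For Hmox1, the gene with the largest spread, the nearest were Rpusd3 (0.14), Arrdc1 (0.14) and Dhrs11 (0.15). The measure is not scaled to the spread of a gene, so these distances are not compared with those of Bola2.

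Other genes of iron biology were taken from 9 lists with 123 symbols, of which 119 were measured and 97 passed the filter. Of these 97, 0 passed limma's adjusted threshold of 0.05 in either direction, against 0.00957% of all genes called. By unadjusted limma p under 0.05 the 97 held 15 higher and 3 lower genes, against 13.9% and 3.60% of all genes. In 10 the groups did not overlap with TKO-labelled higher, and in 2 with TKO-labelled lower, against 7.55% and 1.86% of all genes. Their median log2 difference was 0.15 and that of all tested genes 0.09, and median-ratio scaling gave 0.07 and 0.02. Differences were positive for 72 of the 97, against 66.5% of all genes, a share to set beside the list counts below.

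**Figure D4:**
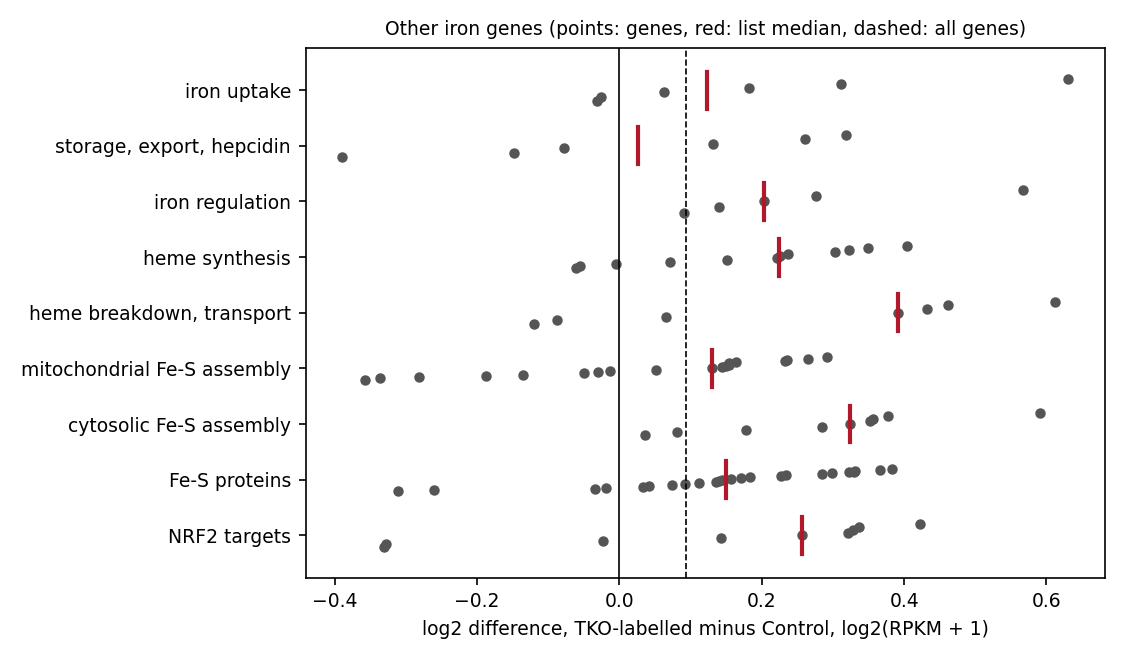
Log2 difference (TKO-labelled minus Control, log2(RPKM + 1)) of each tested gene (grey point) in 9 lists of iron and related genes, with the list median in red, and the dashed line is the median of all tested genes, 0.09. The medians run from 0.03 for storage, export and hepcidin genes to 0.39 for heme breakdown and transport.

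Among the other uptake genes 6 of 13 were tested, with a median of 0.12. Under median-ratio scaling the median was 0.06, with 3 positive and 3 negative differences. Slc39a8, which encodes a metal carrier of the ZIP family, had 11.6, 18.8, 20.1 and 16.8 RPKM in TKO-labelled embryos, against 14.4, 10.2, 7.99 and 9.53 RPKM in Control embryos. TKO replicate 1 lay inside the Control range, as for the parietal endoderm markers, and the other 3 above it. Its log2 difference was 0.63 (SE 0.20, limma adjusted p = 0.182), and 0.21 with the parietal endoderm covariate. Slc39a14, a related carrier of iron not bound to transferrin, averaged 3.44 ± 0.356 and 2.58 ± 0.321 RPKM in TKO-labelled and Control embryos (log2 difference 0.31, limma adjusted p = 0.232), and its log2 difference was 0.21 with centring by coding-length class.

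Of the genes of storage, export and the hormone hepcidin, 6 of 14 were tested, with a median of 0.03 (-0.04 under median-ratio scaling). Ncoa4, the receptor that delivers ferritin to the lysosome, averaged 31.5 ± 3.54 RPKM in TKO-labelled and 26.2 ± 4.203 RPKM in Control embryos (log2 difference 0.26, limma adjusted p = 0.344). Prnp, the prion protein gene, averaged 2.75 ± 0.547 and 4.06 ± 1.64 RPKM (-0.39, limma adjusted p = 0.356) in the same order. Prnp had a log2 difference of -0.19 without Control replicate 3, whose 6.37 RPKM was its highest value, and that of Ncoa4 was 0.10 with the parietal endoderm covariate. The hepcidin gene Hamp was listed at 0 in all 4 Control embryos and in 2 of 4 TKO-labelled embryos, with 0.256 and 0.715 RPKM in the others.

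All 5 regulators of iron and oxygen response were tested and had positive differences, with a median of 0.20 (4 of 5 positive under quantile normalization). Aco1, which encodes iron regulatory protein 1, a protein that binds the hairpins shown above, had 12.7, 10.5, 11.01 and 12.5 RPKM in TKO-labelled embryos, against 10.2, 9.16, 10.5 and 8.06 RPKM in Control embryos. The groups touched but did not overlap (log2 difference 0.28, SE 0.12, limma adjusted p = 0.264), and the log2 difference ran from 0.17 under quantile normalization to 0.45 with the parietal endoderm covariate. Fbxl5, the iron sensor that marks iron regulatory proteins for breakdown, averaged 16.9 ± 1.63 and 14.6 ± 2.20 RPKM in TKO-labelled and Control embryos (0.20, limma adjusted p = 0.420), with 0.08 under quantile normalization.

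In heme synthesis 12 of 13 genes were tested, 9 with positive differences (8 under median-ratio scaling or quantile normalization) and a median of 0.22. Urod, an enzyme of the pathway, averaged 37.7 ± 6.37 RPKM in TKO-labelled and 28.4 ± 5.23 RPKM in Control embryos (log2 difference 0.40, limma adjusted p = 0.242, and 0.26 under quantile normalization). The Urod groups did not overlap but nearly touched, with 31.8 RPKM in TKO replicate 2 and 31.6 RPKM in Control replicate 1. Alas2, the erythroid first enzyme, was the gene that failed the filter, at 0.557 ± 0.318 and 0.612 ± 0.126 RPKM.

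In heme breakdown and transport 7 of 11 genes were tested, 5 with positive differences and a median of 0.39. Hmox2, the constitutive heme oxygenase, had 19.1, 19.4, 23.1 and 28.8 RPKM in TKO-labelled embryos, against 16.7, 13.4, 13.3 and 13.8 RPKM in Control embryos. All 4 TKO-labelled values were above all Control values, replicate 2 included, where Hmox1 was lowest. Hmox2 had a log2 difference of 0.61 (SE 0.14, 95% confidence interval 0.29 to 0.93, limma adjusted p = 0.145), and 0.48 with the parietal endoderm covariate. Abcg2, a transporter that exports porphyrins among other molecules, averaged 44.4 ± 10.8 and 32.6 ± 7.85 RPKM in TKO-labelled and Control embryos (0.43, limma adjusted p = 0.313). With the parietal endoderm covariate the log2 difference of Abcg2 was -0.005, near 0.

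Of the mitochondrial iron-sulfur genes 19 of 20 were tested, with 11 positive and 8 negative differences and a median of 0.13 (9 positive and a median of -0.01 under quantile normalization). Bola1, a mitochondrial relative of Bola2, had 62.5, 62.9, 59.8 and 61.7 RPKM in TKO-labelled embryos, against 87.0, 87.7, 65.1 and 75.2 RPKM in Control embryos. All 4 TKO-labelled embryos were lower, with Control replicate 3 nearest to them, and the log2 difference was -0.34 (SE 0.11, limma adjusted p = 0.200). Bola3, the other relative, overlapped, at 59.6 ± 7.99 RPKM in TKO-labelled and 65.2 ± 4.95 RPKM in Control embryos (-0.14, and -0.05 without TKO replicate 1). Fdx1, a ferredoxin, averaged 17.7 ± 2.82 and 22.8 ± 2.48 RPKM in the same order without overlap (-0.36, limma adjusted p = 0.230), with -0.22 under the parietal endoderm covariate.

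The cytosolic assembly genes, the pathway in which Glrx3 and Bola2 act, were all tested. They had 9 of 9 positive differences, against 66.5% of all genes, with a median of 0.32, or 7 of 9 and 0.24 under median-ratio scaling. Nubp2, a scaffold protein of the pathway, had 34.2, 21.56, 28.8 and 44.1 RPKM in TKO-labelled embryos, against 21.41, 21.41, 18.5 and 20.2 RPKM in Control embryos. TKO replicate 2 lay just above the highest Control embryos (log2 difference 0.59, SE 0.18, limma adjusted p = 0.182). Narfl, which passes clusters from the scaffold to the targeting complex, averaged 4.58 ± 0.738 and 3.56 ± 0.299 RPKM in TKO-labelled and Control embryos (0.29, limma adjusted p = 0.285). Its log2 difference ran from 0.18 with centring by coding-length class to 0.43 with the parietal endoderm covariate. Nubp2 and Narfl both had their highest values in TKO replicates 1 and 4, which did not hold for all 9 genes.

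Of the iron-sulfur proteins that receive clusters 24 of 27 were tested, with 20 positive differences and a median of 0.15. Under median-ratio scaling these were 17 and 0.07. The complex I gene Ndufv1 averaged 59.6 ± 8.93 RPKM in TKO-labelled and 45.2 ± 3.59 RPKM in Control embryos (log2 difference 0.38, limma adjusted p = 0.186), and the DNA primase gene Prim2 averaged 18.6 ± 2.23 and 14.2 ± 1.59 RPKM (0.37, limma adjusted p = 0.200). For both, all TKO-labelled embryos were above all Control embryos, though the nearest values were close. For Prim2 these were 15.9 RPKM in TKO replicate 3 and 15.7 RPKM in Control replicate 4. For Ndufv1 they were 50.5 RPKM in TKO replicate 2 and 49.3 RPKM in Control replicate 1. Among targets of NRF2, the stress-response factor that also acts on Hmox1 and the ferritin genes, 9 of 11 were tested, with 6 positive and 3 negative differences and a median of 0.26. Me1, the malic enzyme gene, averaged 10.4 ± 0.837 and 13.4 ± 2.29 RPKM in TKO-labelled and Control embryos (-0.33, limma adjusted p = 0.244). G6pdx, the entry enzyme of the pentose phosphate pathway, averaged 13.7 ± 3.72 and 9.78 ± 1.33 RPKM in the same order (0.42, limma adjusted p = 0.262). With the parietal endoderm covariate the values were -0.50 for Me1 and 0.65 for G6pdx.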

How the data were processed

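Single whole E6.75 embryos were lysed, and SMARTer cDNA and Nextera XT libraries were prepared, per the labels' protocols. The deposited table holds RPKM values computed by the authors, 1 per gene symbol and embryo. Per the submitters' processing notes, HTSeq was used with build mm9. The sources used here do not name the aligner, annotation, strand setting or read totals, so antisense reads cannot be told apart. Depth was estimated from low RPKM values of genes with 1 transcript in GENCODE M21, at the read total where most came out within 2% of 1 to 3 whole reads (31.0% to 38.3% of them, against a median of 1.18% to 1.59% over other totals). Counting errors are from these estimates and cover counting only. No count test was run.

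Differences on the log2(RPKM + 1) scale came from limma 3.58.1 (R 4.3.3, eBayes trend) with 4 against 4 embryos and no covariates. Genes needed at least 1 RPKM in at least 4 embryos. The p-values are two-sided and Benjamini-Hochberg adjusted over all tested genes, and reflect variation among single embryos whose litters are unknown. From each list the 2 genes with the smallest unadjusted p are named, except that 1 gene is not reported here. Rpl38 and its like were named by closeness to Bola2 or Hmox1. Genes and lists were chosen with earlier results of these data known. Bola3 and Hamp were named after their values were seen. A coding length was found for 87.5% of tested genes. Alternatives were another pseudocount, filters, scalings, variance models, tissue covariates, a replicate block, leaving out each embryo, and centring by coding-length class.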

Additional observations from a re-analysis of the deposited data

Results flagged for a closer look

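Among 70 groups of 4 values examined (30 genes and 5 ratios in 2 groups each), 6 held a value set far from the other 3. Chance gives about 1 in 20 groups. None of the 10 iron genes or their ratios was among them. The low values were Tet2 in Control replicate 2, at 0.444 RPKM, Slc39a14 in TKO replicate 4, at 2.91 RPKM, Urod in Control replicate 3, at 20.6 RPKM, and Fdx1 in TKO replicate 2, at 13.5 RPKM. The high values were Prnp in TKO replicate 3, at 3.57 RPKM, and Hmox2 in Control replicate 1, at 16.7 RPKM.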

How the results depend on the processing

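Under all 19 alternatives 0 of the 10 iron genes and 0 of the other iron genes passed the adjusted limma threshold. The lowest adjusted p of the 10 over all settings was 0.0613, for Slc40a1 without TKO replicate 1. Of 190 values of the 10 genes under alternatives, 7 had the opposite sign, all of Slc11a2, Iscu or Glrx5, and 1 moved by more than 1 SD, Slc40a1 with the parietal endoderm covariate (0.42); the cause was not tested. Over all genes, 1 was called. The count was 0 without a filter or with the visceral endoderm covariate, 2 with a mean of at least 5 RPKM or quantile normalization, 3 with the parietal endoderm covariate, 15 with robust eBayes and array weights, and 0 to 40 when 1 embryo was left out, 40 without TKO replicate 1. Median-ratio scaling split the genes at an unadjusted p under 0.05 into 841 higher and 671 lower, against 1448 and 376. Whether replicate numbers pair the embryos was not settled. Correlations of deviations between embryos of the same number were -0.005, 0.40, 0.26 and -0.02. TKO replicates 2 and 3 were most like the Control embryo of their own number, and TKO replicates 1 and 4 were not. The fit with a replicate block called 0 genes, which cannot decide it, because the main fit called only 1. With the block the SE of Hmox1 was 0.19, against 0.31 without. Depth limits Slc11a2 most.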
